A study of Mus musculus with 7 samples.

Results

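Fibroblast growth factor (FGF) signalling in the growth plate was examined through 10 genes. These were 3 tyrosine kinase receptors (Fgfr1, Fgfr2 and Fgfr3), the related receptor Fgfrl1, 3 ligands (Fgf2, Fgf7 and Fgf18) and 3 feedback inhibitors (Spry2, Spry4 and Dusp6). They were taken by gene symbol from the 43346 genes of the deposited counts, and all 10 were found. FGF ligands bind receptors on the cell surface together with heparan sulfate, and the activated receptors signal through adaptors, RAS and the ERK kinases. ERK signalling in turn switches on Sprouty and dual-specificity phosphatase genes, whose products dampen the pathway. In the growth plate FGFR3 is best known as a brake on chondrocyte proliferation and hypertrophy, and activating mutations of it shorten the long bones.

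RNA came from proximal and distal tibial growth plates of 7 male F1 mice of a cross between C57BL/6J (B6) and CAST/EiJ (CAST), killed at 21 d of age. The mice are numbered 1, 2, 3, 4, 5, 7 and 8 in the labels, received no treatment that the labels name, and form 1 group. Each mouse carried 1 B6 and 1 CAST copy of every autosomal gene, so the comparison the design holds is that of the CAST with the B6 allele inside each animal. Counts from mitochondrial genes were 99.98% to 99.99% B6 and those of X-linked genes were 90.2% to 91.6% B6 in each mouse. All 7 mice therefore had their B6 copy from the same parent, and an effect of the strain of an allele cannot be told apart from an effect of the parent that passed it on. All 10 genes lie on autosomes.

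The libraries held 14098019 to 37849667 estimated counts per mouse, and autosomal genes had a B6 share of 49.4% to 49.7%. These totals exceed the mean number of read pairs that the labels give per sample, and the authors processed lanes and read ends separately. A molecule may thus stand for more than 1 count, in which case the counting SDs and intervals below are too small. The labels call the tissue growth plate chondrocytes. Summed levels of 7 chondrocyte markers (Col2a1, Acan and others) were 52523 to 88842 CPM (counts scaled to a common library total) and those of 4 hypertrophic chondrocyte markers 3131 to 4841. Osteoblast markers were also high, with 35788 to 65113, and erythroid markers (7869 to 19283), skeletal muscle markers (2920 to 5965) and osteoclast markers (2143 to 3252) were found in every mouse. Neutrophil (1041 to 2225), B lineage (91.3 to 279) and endothelial markers (163 to 242) were lower, and no marker was at 0 in all mice. In such bulk tissue a lower level from fewer cells of a type cannot be told apart from less RNA per cell. The level of each gene below was also divided by the length of its exons, as CPM per kilobase, so that genes could be set beside each other.

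Per kilobase, Fgfr3, Fgfrl1 and Fgfr1 had the highest levels of the 10 genes and the ligands the lowest. Fgfr3 had the highest level, with a low of 37.7, a median of 41.2 and a high of 49.1 CPM per kilobase over the 7 mice. Fgfrl1, which binds FGFs but has no kinase domain, followed at 33.3, 36.1 and 42.1 in the same order. Fgfr1, the broadly expressed receptor of mesenchymal tissues, came next at 24.6, 26.1 and 33.3. In all 7 mice the order per kilobase was Fgfr3, Fgfrl1, Fgfr1, although the ranges of Fgfr3 and Fgfrl1 over mice overlapped. The exon length takes in all annotated transcripts, 9875 bases for Fgfr1 and 2782 for Fgfrl1, and is the same in each mouse. Before division by length, Fgfr1 had a mean of 272 CPM and Fgfrl1 of 101. In mouse 1, Fgfr1 (329 CPM) was then above Fgfr3 (270 CPM). The order of these genes thus depends on the length used. Fgfr2, which is known for its role in osteoprogenitors and the perichondrium, had 7.87, 11.0 and 12.4 CPM per kilobase. The feedback phosphatase Dusp6, which removes the activating phosphates from ERK, had 9.34, 10.7 and 13.6. Dusp6 and Fgfr2 kept their order in only 5 of 7 mice and thus did not differ per kilobase beyond their spread.

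**Figure D1:**
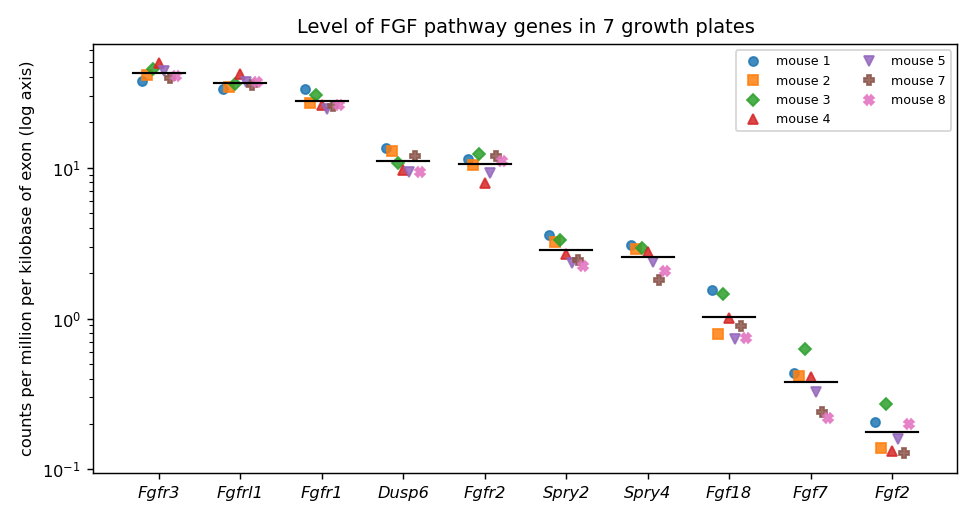
Level of each of the 10 genes in CPM per kilobase of exon, on a log axis, with 1 point per mouse and a black line at the mean of 7 mice. Receptors and Dusp6 sit above the Sprouty genes, and the 3 ligands are the lowest, with Fgf2 at 0.128 to 0.270.

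The Sprouty genes, which block signalling between the receptors and RAS, were lower. The mean level was 2.84 ± 0.546 (SD, n = 7) CPM per kilobase for Spry2 and 2.56 ± 0.492 for Spry4. These also kept their order in only 5 of 7 mice. The ligands followed in the order Fgf18, Fgf7, Fgf2 in all 7 mice, with means of 1.03 ± 0.340, 0.381 ± 0.137 and 0.176 ± 0.0522. Fgf18 is a growth plate ligand made in the perichondrium, Fgf7 is a mesenchymal ligand of the epithelial form of FGFR2, and Fgf2 is stored in the matrix. Summed over the 3 ligands, a mouse had 38.2 to 155 counts, against 10630 to 28528 for the 4 receptors. Among 13537 protein-coding genes with expression in these growth plates, Fgfr3 stood at percentile 95.7 of level per kilobase, Fgfr1 at 93.2 and Fgfr2 at 81.1. Fgf18 stood at percentile 19.9 and Fgf2 at 1.45, but their lowest counts in a mouse (15 and 12.2) were close to that threshold.

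Of 22 FGF ligand genes in the counts, 8 had at least 10 counts in every mouse. These were Fgf1, Fgf2, Fgf7, Fgf9, Fgf11, Fgf13, Fgf14 and Fgf18, of which Fgf11, Fgf13 and Fgf14 encode proteins that stay inside the cell and are not secreted. The highest ligand was Fgf1, with 1.68 ± 0.336 (SD, n = 7) CPM per kilobase. Another 13 ligand genes fell under 10 counts in at least 1 mouse, and Fgf20 was listed at 0 in all 7.

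The receptors did not vary together over the mice. Fgfr3 was highest in mouse 4 (352 CPM) and lowest in mouse 1 (270 CPM), and Fgfrl1 was also highest in mouse 4 and lowest in mouse 1. Fgfr1 was highest in mouse 1, at 329 CPM, and lowest in mouse 5, at 242. Fgfr2 was lowest in mouse 4, at 81.3 CPM, and highest in mouse 3, at 128.2. Mouse 4 thus paired the highest Fgfr3 with the lowest Fgfr2, and these extremes stayed in the same mice when abundant noncoding RNAs were left out of the totals or TMM scaling was used, except that the highest Fgfr2 was in mouse 7 without the noncoding RNAs. Within a mouse, where no scaling between libraries enters, the level per kilobase of Fgfr3 was 3.29 to 6.24 times that of Fgfr2, with the highest ratio in mouse 4. It was 1.13 to 1.88 times that of Fgfr1, lowest in mouse 1 and highest in mouse 4. The ratio of Fgfr3 to Fgfrl1 was narrower, at 1.10 to 1.25.

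Marker sums moved over the same mice. The chondrocyte sum was highest in mouse 4 (88842 CPM), the mouse with the highest Fgfr3 and Fgfrl1, and lowest in mouse 8 (52523). The skeletal muscle sum was highest in mouse 1 (5965 CPM) and lowest in mouse 4 (2920). The osteoblast sum was highest in mouse 2 (65113 CPM) and lowest in mouse 7 (35788). The sums do not speak for every marker. Col2a1 made up 72.9% to 81.4% of the chondrocyte sum, and 3 of the 7 markers (Col2a1, Acan and Comp) were highest in mouse 4, while Sox9 was highest in mouse 1, Matn3 and Hapln1 in mouse 5 and Col9a1 in mouse 8. Col1a1 made up 92.4% to 96.7% of the osteoblast sum and followed it with Sp7 in being highest in mouse 2, whereas Bglap and Bglap2 were at their lowest there. Among the muscle markers, Acta1, Ckm and Tnnt3 were highest in mouse 1, and Myh4 in mouse 8. Myh4 and Tnnt3 were lowest in mouse 4, Acta1 in mouse 7 and Ckm in mouse 5. The part of cell makeup in the levels of the receptors was not tested.

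**Figure D2:**
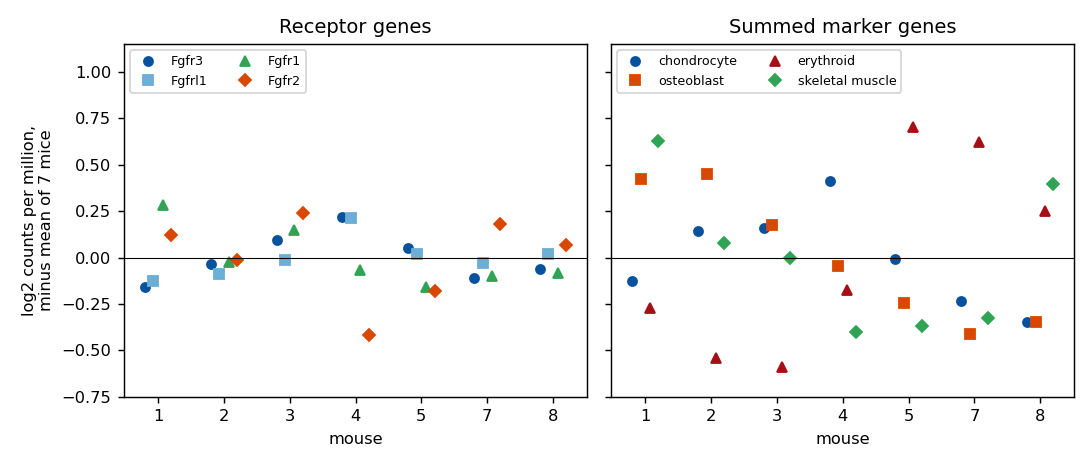
Left, level of the 4 receptor genes in each mouse, and right, summed level of 4 marker lists, both as log2 CPM minus the mean of the 7 mice. In mouse 4 Fgfr3, Fgfrl1 and the chondrocyte sum are at their highest and Fgfr2 is at its lowest.

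Genes whose level over the 7 mice was most like that of each receptor were sought among the 9942 genes that had 100 or more counts in each mouse, by the root mean square difference of centred log2 CPM. For Fgfr3 these were Eps8l2, Srebf1, a regulator of lipid synthesis genes, and Mical1, an actin-oxidising enzyme, with differences of 0.033, 0.035 and 0.038. For Fgfr1 they were Htra3, a secreted serine protease, Prr33 and Ypel2 (0.031, 0.032 and 0.041), and for Fgfr2 Nrep, Retreg1, an endoplasmic reticulum-phagy receptor, and Rpl22l1, a ribosomal protein paralog (0.026, 0.057 and 0.058). For comparison, the SD over mice of the log2 level was 0.13 for Fgfr3, 0.16 for Fgfr1 and 0.23 for Fgfr2. The 9 names describe 7 libraries only.

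The CAST and B6 alleles were then compared. At an FDR under 0.20 (edgeR likelihood-ratio test, adjusted over 21805 genes), 4 of the 10 genes were called, beside 32.6% of all genes tested. Fgfr1 and Fgfr2 were higher from the CAST allele, and Spry2 and Dusp6 were higher from the B6 allele. The 2 alleles of a mouse come from 1 library and are paired by animal. Once the mouse entered as a block, 6 of the 10 were called by the likelihood-ratio test, beside 42.7% of all genes, and the same number by the quasi-likelihood test, beside 37.6%. The additions were Fgfr3, higher from CAST, and Spry4, higher from B6. All 10 genes are autosomal, and the shares of autosomal genes called were 31.2%, 41.8% and 36.5% in the same order. All these shares take in genes of any depth and were not matched to the counts of the 10 genes. The counts are read beside these shares only, and no test across the 10 genes as a set was made. Counts of X-linked genes were 90.2% to 91.6% B6, although males with a B6 X chromosome have no CAST copy of most of them. Some counts were thus assigned to an absent allele. An error of assignment at a gene could recur in every mouse. Agreement between mice therefore does not separate it from a difference in expression. The part of such error in the differences below was not tested.

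Fgfr1 (ENSMUSG00000031565, chromosome 8, 25513654 to 25575718, GRCm38/mm10, plus strand) had the steadiest difference. Its B6 share was 44.2% in the lowest mouse, 45.4% in the median mouse and 47.2% in the highest, with 3553 to 10059 counts per mouse. CAST counts were therefore higher in 7 of 7 mice. The log2 fold change of CAST over B6 was 0.28, or 1.22-fold (FDR = 0.015, edgeR likelihood-ratio test), and the SD over mice of the log2 ratio was 0.055. Signs of the log2 ratios were then flipped in an exact two-sided permutation test over mice, which gave p = 0.0156, the smallest that 7 mice allow, and 0.068 after adjustment over all tested genes. Leaving out each mouse in turn gave log2 fold changes of 0.27 to 0.30, all called.

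Fgfr2 (ENSMUSG00000030849, chromosome 7, 130162451 to 133123350, minus strand) differed less and less evenly. The B6 share was 44.4% at the lowest, 45.9% at the median and 52.0% at the highest, and CAST counts were higher in 6 of 7 mice. Mouse 3 was the exception, with 1842 B6 and 1697 CAST counts and a 95% Wilson interval of 50.4% to 53.7% for its B6 share, while the other 6 mice lay at 47.4% or lower. The log2 fold change was 0.20 (FDR = 0.18), and the exact sign-flip permutation test gave p = 0.031 and an adjusted p of 0.107. Without mouse 3 it was 0.26 with an FDR of 0.068, and without any other single mouse the call was lost (FDR 0.23 to 0.35, edgeR likelihood-ratio test). Blocking on the mouse gave an FDR of 0.0011 by the likelihood-ratio test and 0.030 by the quasi-likelihood test. The totals of Fgfr2 were not whole numbers in any mouse, which marks reads that were divided with another gene. Fgfr2 shares 314 exon bases with Ctbp2, a transcriptional corepressor gene upstream of it on the same strand that its annotated span reaches, and the totals of both genes summed to whole numbers in 7 of 7 mice, to a tolerance of 0.0001. Ctbp2 had a mean of 412 counts, and its B6 share was 40.7% to 62.6% and 48.6% in mouse 3.

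Fgfr3 (ENSMUSG00000054252, chromosome 5, 33721674 to 33737068, plus strand) was the most abundant of the 10 and leaned the same way. Its B6 share was 43.6% at the lowest, 48.0% at the median and 49.7% at the highest. CAST counts were higher in 7 of 7 mice, but the mice were far apart: mouse 4 had 3225 B6 and 4165 CAST counts, and mouse 2 had 4359 and 4409. The SD of the share over mice was 2.17 points, 3.70 times the SD that counting alone gives at these depths. Its log2 fold change was 0.19 with an FDR of 0.26, so that Fgfr3 was not called without the block. With the mouse as a block it was 0.18, and the FDR was 0.00039 by the likelihood-ratio test and 0.022 by the quasi-likelihood test. The exact sign-flip permutation test over mice gave p = 0.0156 and an adjusted p of 0.068. These SDs and the intervals take in counting error alone, as PCR copies of a read are not separate molecules.

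Fgfrl1 (ENSMUSG00000008090, chromosome 5, 108692382 to 108706924, plus strand) had equal alleles within the error. The B6 share was 48.1%, 49.97% and 50.9% in the lowest, median and highest mouse, from 1395 to 3884 counts. CAST counts were higher in 4 mice and B6 counts in 3. Its log2 fold change was 0.02 (FDR = 1, edgeR likelihood-ratio test), and over leave-outs of 1 mouse it ran from 0.01 to 0.03. The spread of its share over mice was 1.03 times the counting SD, against 1.51 for Fgfr1, 2.59 for Fgfr2 and 3.70 for Fgfr3.

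**Figure D3:**
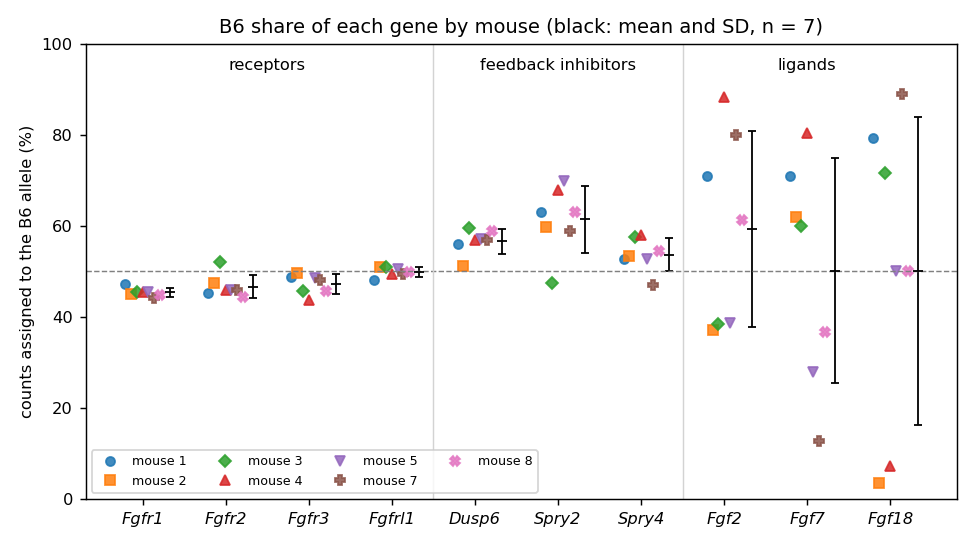
Share of each gene's counts assigned to the B6 allele in each mouse, with the mean and SD of 7 mice in black and a dashed line at an equal share. Fgfr1 and Fgfr3 lie under the line in every mouse, Dusp6 lies above it in every mouse, and the ligands spread from 3.43% to 89.1%.

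The feedback inhibitors leaned to the B6 allele. Dusp6 (ENSMUSG00000019960, chromosome 10, 99263231 to 99267489, plus strand) had a B6 share of 51.2% in the lowest, 56.9% in the median and 59.5% in the highest mouse, from 529 to 1300 counts. B6 counts were higher in 7 of 7 mice, with mouse 2 (615 B6 and 588 CAST counts) nearest to an equal share. The log2 fold change of CAST over B6 was -0.35 (FDR = 0.019, edgeR likelihood-ratio test), and the exact sign-flip permutation test gave p = 0.0156 and an adjusted p of 0.068. Each mouse left out in turn gave -0.42 to -0.32, all called.

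Spry2 (ENSMUSG00000022114, chromosome 14, 105891947 to 105896819, minus strand) had the largest difference among the 4 genes called. Its B6 share was 47.4%, 63.0% and 69.9% in the lowest, median and highest mouse, from 72 to 230 counts. B6 counts were higher in 6 of 7 mice. Mouse 3 was again the exception, with 91.0 B6 and 101 CAST counts and a 95% Wilson interval of 40.5% to 54.4%, which includes an equal share. Its log2 fold change was -0.61 (FDR = 0.0072, edgeR likelihood-ratio test). The exact sign-flip permutation test gave p = 0.031 and an adjusted p of 0.107, and leave-outs of 1 mouse gave -0.78 to -0.53, all called.

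Because the data set the alleles of Dusp6 and Spry2 apart in the same direction, the sequence just before the start of each is shown. RefSeq promoter entries (GRCm38.p6, the B6 reference) were found for 8 of the 10 genes, and Fgfr1 and Spry4 had none. The CAST sequence was not used here. Both windows run 5′ to 3′ over the 250 bases that end at the annotated start, chr10:99262981-99263230 on the plus strand for Dusp6 and chr14:105896820-105897069 on the minus strand for Spry2. Capitals mark the ETS motif CGGAAG on either strand, the only form of it that was sought.
Dusp6: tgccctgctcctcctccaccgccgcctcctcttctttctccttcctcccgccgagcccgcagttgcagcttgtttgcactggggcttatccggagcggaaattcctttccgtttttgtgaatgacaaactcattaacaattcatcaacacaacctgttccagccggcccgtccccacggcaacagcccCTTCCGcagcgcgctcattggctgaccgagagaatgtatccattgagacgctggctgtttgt
Spry2: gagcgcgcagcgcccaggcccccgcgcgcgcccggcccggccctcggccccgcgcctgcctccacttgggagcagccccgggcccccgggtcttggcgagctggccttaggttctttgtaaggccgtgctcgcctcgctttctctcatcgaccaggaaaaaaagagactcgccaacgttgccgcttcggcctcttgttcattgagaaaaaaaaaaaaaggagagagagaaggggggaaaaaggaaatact
Dusp6 held 1 CGGAAG, a binding motif of the ETS factors that ERK signalling acts on, 62 bases before the start and on the opposite strand. Spry2 held no CGGAAG. Of 32851 RefSeq promoter windows of this length, 13.6% held CGGAAG. Shorter GGAA stretches, the centre of this motif, occur in both windows and were not counted. No AP-1 motif (TGANTCA), GC box (GGGCGG) or TATA box (TATAAA) was found on either strand of these windows, beside 6.75%, 32.7% and 12.4% of all windows. The Spry2 window had 23 CpG dinucleotides and 62.4% G and C, and that of Dusp6 had 16 and 56.4%, against medians of 6 and 52.4% over all windows. A motif match describes letters in the B6 reference and says nothing of an allele difference.

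Spry4 (ENSMUSG00000024427, chromosome 18, 38586247 to 38601415, minus strand) had a B6 share of 47.0%, 53.3% and 57.9% in the lowest, median and highest mouse, from 120 to 447 counts. B6 counts were higher in 6 of 7 mice, and mouse 7, with the fewest counts, was the exception (95% Wilson interval 38.0% to 55.6%). Its log2 fold change of -0.22 was not called (FDR = 0.36, edgeR likelihood-ratio test). Blocking on the mouse gave an FDR of 0.0095 by the likelihood-ratio test and 0.090 by the quasi-likelihood test. The exact sign-flip permutation test gave p = 0.0625 and an adjusted p of 0.177.

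Set side by side inside each mouse, the 3 kinase receptors and the 3 inhibitors lay on opposite sides of an equal share in 5 of 7 mice. In mouse 3, Fgfr2 was higher from B6 and Spry2 from CAST, and in mouse 7 Spry4 was higher from CAST. Fgfrl1, which has no kinase domain, was left out and was higher from CAST in 4 mice and from B6 in 3. The count by mouse restates the directions given above gene by gene and adds no evidence to them. For background, 21.1% of autosomal genes tested, of any depth, had the same direction in all 7 mice, as Fgfr1, Fgfr3 and Dusp6 did. CAST-higher calls were 16.0% of autosomal genes and B6-higher calls 15.2%. The median log2 fold change of the autosomal genes tested was 0.02, and that of the 4 receptors was 0.20 and of the 3 inhibitors -0.35. The median size of a called autosomal difference was 0.64 on the log2 scale. The differences of Fgfr1, Fgfr2 and Dusp6 were smaller than this, and that of Spry2 (-0.61) was close to it. That median was taken over called genes of any depth and was not matched to the counts of these 4 genes. The difference in direction between receptors and inhibitors was not tested.

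**Figure D4:**
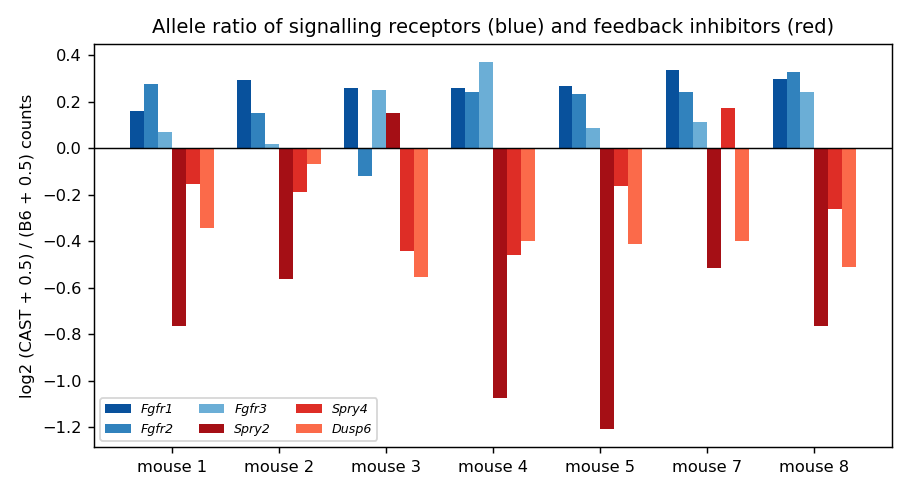
Log2 ratio of CAST to B6 counts, each with 0.5 added, for Fgfr1, Fgfr2 and Fgfr3 (blue bars) and Spry2, Spry4 and Dusp6 (red bars) in each mouse. Blue bars point up and red bars down in mice 1, 2, 4, 5 and 8, while Fgfr2 and Spry2 in mouse 3 and Spry4 in mouse 7 go the other way.

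The ligands could not be compared between alleles with any precision. Fgf18 (ENSMUSG00000057967, chromosome 11) had a B6 share of 3.43% in mouse 2 (28 counts, 95% Wilson interval 0.633% to 17.7%) and 89.1% in mouse 7 (15 counts, 62.1% to 96.3%). In mice 5 and 8 its alleles were exactly equal, which is how the authors' method leaves counts without reads that tell the alleles apart. In mice 2 and 7 the number of such reads is unknown, so these intervals can be too narrow. The spread of its share over mice was 3.51 times the counting SD. Fgf7 (ENSMUSG00000027208, chromosome 2) ran from 12.7% to 80.5% on 11 to 56 counts, and Fgf2 (ENSMUSG00000037225, chromosome 3) from 37.0% to 88.4% on 12.2 to 50.6. None of the 3 was called, with log2 fold changes of -0.12, -0.32 and -0.36 and FDRs of 1, 0.71 and 0.60 (edgeR likelihood-ratio test). In the fit with that block the value of Fgf18 was 0.05, on the other side of 0. The exact sign-flip permutation test gave p = 0.81 for Fgf18, 1 for Fgf7 and 0.33 for Fgf2.

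Several of the 10 genes share exon bases with a neighbour. Fgf2 shares 640 exon bases with Nudt6, a gene on the opposite strand with a mean of 76.4 counts, which is more than Fgf2 itself had in any mouse. Nudt6 was higher from CAST in 7 of 7 mice (log2 fold change 0.60, FDR = 0.013, edgeR likelihood-ratio test). Fgfr1 shares 164 exon bases with the antisense gene Gm16159, which had a mean of 29.2 counts and was not called (FDR = 0.75, edgeR likelihood-ratio test). Fgfr3 shares 998 with the unclassified gene G630022F23Rik, and Fgf2 shares 255 with Gm43439 on its own strand. Neither of these neighbours is among the counted genes, so no reads could be divided with them. The totals of Fgfr1 and Fgf2 were not whole in any mouse, and those of Fgfr3 were whole in 7 of 7. Whole totals of Fgfr3 therefore do not show that it is free of reads from G630022F23Rik. Added to the neighbour, the total was whole in 1 of 7 mice for Fgf2 with Nudt6 and in 2 of 7 for Fgfr1 with Gm16159. Libraries were made with a stranded kit, but whether strand was used in counting is not given in the sources used here, and without it reads of such pairs cannot be told apart.

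The pathway around the 10 genes was described with 70 further genes, of which 69 were in the counts and 55 were autosomal and tested. Of these 55, 11 were called at an FDR under 0.20 (beside 31.2% of all autosomal genes tested), 5 higher from CAST and 6 from B6. With the mouse as a block, 18 were called by the likelihood-ratio test (10 from CAST, 8 from B6) and 16 by the quasi-likelihood test (9 and 7), beside 41.8% and 36.5% of all autosomal genes. The share of this list was lower than the background with and without the block, but the difference was not tested.

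Among 10 other autosomal feedback inhibitors, 5 were called, beside the 31.2% of autosomal genes. Of these, 4 were higher from B6 and 1 from CAST. Dusp7, an ERK phosphatase and the most abundant of them, was higher from B6 in 7 of 7 mice (log2 fold change -0.25, FDR = 0.041, edgeR likelihood-ratio test). Il17rd, also called SEF, a membrane inhibitor of FGF signalling, was too (-0.36, FDR = 0.074). The remaining 3, named after their values were seen, were Spred2 (-0.36) and Spred3 (-0.55), Sprouty-related inhibitors of RAF activation, and Rasa1 (0.31), a RAS GTPase-activating protein. With the mouse as a block 7 of the 10 were called by the likelihood-ratio test, 4 from B6 and 3 from CAST, and 5 by the quasi-likelihood test, 3 and 2, no longer with Spred2 and Rasa1, beside 41.8% and 36.5% of autosomal genes. The lean to B6 among the calls was therefore less with the block, and the median log2 fold change of the 10 was -0.08.

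In the adaptors and signal relay, 3 of 23 autosomal genes were called, beside 31.2% of all autosomal genes. The MEK kinase genes Map2k1 and Map2k2 were higher from CAST in 7 of 7 mice (log2 fold changes 0.40 and 0.25, FDR = 0.00033 and 0.033, edgeR likelihood-ratio test), and the docking adaptor gene Gab1 was higher from B6 in 7 of 7 (-0.32, FDR = 0.0039). Mapk3, which encodes ERK1 and had the highest level per kilobase of this role (22.9 ± 1.86 CPM per kilobase, SD, n = 7), had a log2 fold change of 0.00 (FDR = 1), with a sign that changed under other scalings. With the block 7 of the 23 were called by either test, 5 from CAST and 2 from B6, beside 41.8% and 36.5% of autosomal genes. These shares were not tested against each other.

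Of 7 other receptor, co-receptor and binding protein genes, 2 were called, near the background of 31.2%. Fgfbp3, a secreted FGF-binding protein, had 26.7 ± 6.90 B6 and 3.84 ± 3.36 CAST counts (SD, n = 7), and B6 was higher in 7 of 7 mice (log2 fold change -2.75, FDR = 8.2e-15, edgeR likelihood-ratio test). Fgfr4, the other signalling FGF receptor, was higher from CAST in 6 of 7 (1.18, FDR = 0.00036) on 23 to 88 counts. Flrt2, a fibronectin leucine-rich transmembrane protein and the most abundant of this role, was higher from CAST in 7 of 7 mice but was called only with the mouse as a block (log2 fold change 0.18, FDR = 0.37 without it and 0.013 by the quasi-likelihood test with it). Among 8 other autosomal ligand genes that could be tested, only Fgf10 was called, on 3 to 15 counts a mouse and not with the block (FDR = 0.34), and Fgf1 was not (0.14, FDR = 0.59).

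None of 7 target transcription factor and cyclin genes was called without the block, and Fos, an immediate early gene, was with it (FDR = 0.029 by the likelihood-ratio test and 0.091 by the quasi-likelihood test), higher from B6 in 6 of 7 mice. Ccnd1, the cyclin D1 gene and the most abundant of these, had 799 ± 205 B6 and 756 ± 215 CAST counts (SD, n = 7) and a log2 fold change of -0.06 (FDR = 0.76, edgeR likelihood-ratio test). The X-linked genes Araf, Fgf13 and Dusp9 were B6-higher in 7 of 7 mice, as male mice with a B6 X chromosome have no CAST copy of them. Fgf16, also X-linked but not tested, had equal B6 and CAST counts in each mouse (means of 3.64). Equal counts thus do not always mean that both alleles gave reads.

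**Figure D5:**
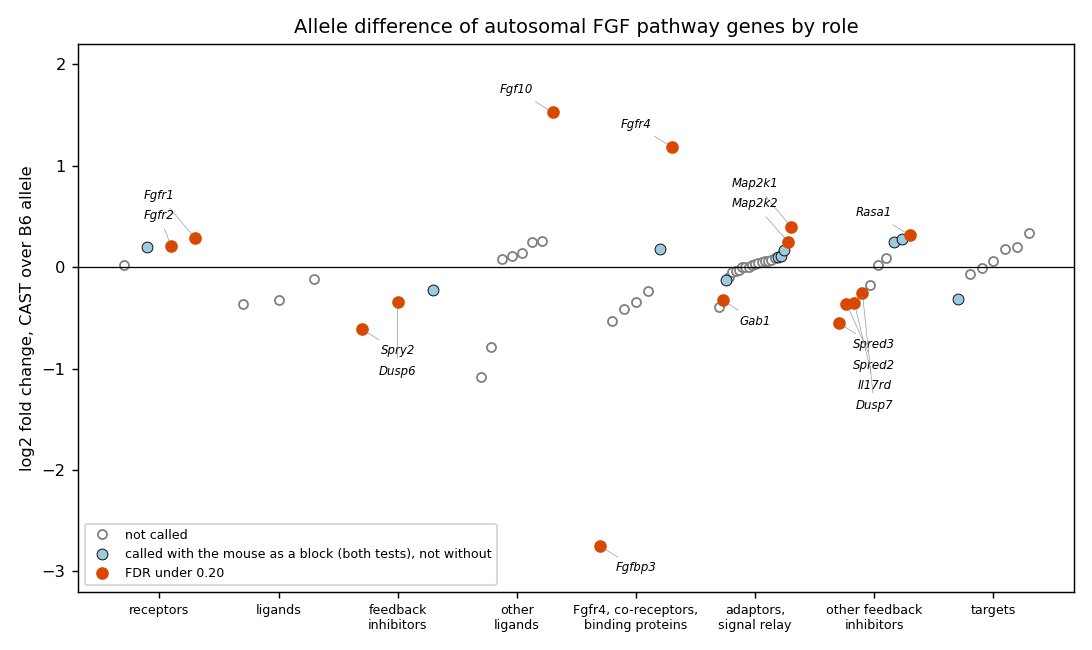
Log2 fold change of CAST over B6 for each autosomal gene tested, by role, with genes called at an FDR under 0.20 in orange and genes called only with the mouse as a block by both tests in light blue. The called feedback inhibitors lie under 0 except Rasa1, Map2k1 and Map2k2 lie above 0, and no target gene is orange.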

How the data were processed

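Total RNA of tibial growth plates of 7 male F1 mice was sequenced as rRNA-depleted, stranded, paired-end libraries. The authors used Bowtie to align reads to transcripts of both strains at once (mm10, and mm10 with CAST variants), and the deposited values are EMASE estimated counts per gene and allele (B6, CAST and total), not normalized. Ambiguous reads are split over the alleles and genes that they match, so counts need not be whole, and the number of reads that tell the alleles apart is unknown. SAMtools is named in the submitters' processing notes.

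Here estimated counts were rounded and compared between alleles in edgeR 4.0.16 (limma 3.58.1, R 4.3.3), with TMM factors over 14 allele columns, estimateDisp, glmFit and glmLRT, for the 21805 genes that each mouse had above 0 from either allele. Some are minute fractions: 1771 of these genes had a total under 1e-06 in at least 1 mouse. FDRs are Benjamini-Hochberg values over all genes tested, and genes under 0.20 were called. The 2 alleles of a mouse share 1 library, which is where the pairing comes from (their deviations from the allele means correlated at 0.047 to 0.330 over 15111 genes, and in 3 of 7 mice less than with another mouse's other allele), and the mouse was added as a replicate block in a further fit. Single genes were tested with exact two-sided sign-flip permutations over 128 patterns of log2 ratios with a pseudocount of 0.5. Names, exon lengths and coordinates are from GENCODE M21 (GRCm38/mm10), which held 42462 of 43346 identifiers. Alternatives were DESeq2 1.42.0, edgeR's quasi-likelihood test, other library sizes, filters, scalings and thresholds, and each mouse left out. The fit was tested on simulated data. Python 3.11.15 with numpy, pandas, scipy 1.17.1 and matplotlib was used for summaries.

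The 10 genes, the pathway and marker lists and the tests were chosen with earlier results of these data known. Named besides the 10 were pathway genes called with 1 direction in all 7 mice, up to 12 by P-value, the most abundant gene of each role, the 3 genes most like each of 3 receptors, and genes that share exon bases with 1 of the 10. The labels give 7 samples of 1 group and do not state separate litters, so P-values hold for these mice only. Without the block, they weigh the allele difference against the spread of each allele's counts between mice. The sign-flip test uses the log2 ratio inside each mouse instead. Femur measurements and mapping data were not analysed here.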

Additional observations from a re-analysis of the deposited data

Results flagged for a closer look

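Over 20 sets of 7 mice (log2 allele ratio and level of each of the 10 genes), 2 had a mouse far from the others by Dixon's test, and about 1 is flagged by chance. The log2 ratio of CAST to B6 counts of Fgfr2 was -0.12 in mouse 3, against 0.15 to 0.33 in the other 6 mice. The level of Fgfrl1 was 117.2 CPM in mouse 4, against 92.7 to 103 in the other 6, and the chondrocyte marker sum was also highest in that mouse.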

How the results depend on the processing

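Fgfr1, Spry2 and Dusp6 were called in each of the 15 alternative fits, and Fgfr2 in 7 of them. The call of Fgfr2 was lost with 1 library size per mouse (FDR = 0.23), with autosomal genes only (FDR = 0.23), and on leaving out any mouse but mouse 3. The number of members called was 3 to 6 over alternatives, 3 to 4 over leave-outs of 1 mouse and 3 at an FDR under 0.05, and the number of all genes called was 4816 to 9315. The replicate block raised the number of other pathway genes called from 11 to 18 (likelihood-ratio test) or 16 (quasi-likelihood test), and it also brought in Fgfr3, Spry4, Flrt2 and Fos, lost Fgf10, and by the quasi-likelihood test lost Spred2 and Rasa1. It changed no other call given here for a named gene, Nudt6, Ctbp2 and Gm16159 included. In the fits Fgf18 turned to the CAST side with the replicate block (0.047 and 0.011) and without mouse 1, 3 or 7 (range over leave-outs -0.58 to 0.28), and it was called in none. Mapk3, at 0.00, turned slightly below 0 with DESeq2 (-0.0008), with 1 library size per mouse (-0.016) and with autosomal genes only (-0.0086), and ran from -0.024 to 0.046 over leave-outs of 1 mouse. The mean log2 ratio of Fgf7 over mice was 0.00 and became -0.10 with a pseudocount of 5. Leaving out abundant noncoding RNAs, 15.5% to 23.8% of the counts of a mouse, raised the levels of 7 genes by more than their SD (Fgfr3 to a mean of 380 CPM), and TMM scaling moved none by as much. Ligand counts of 11 to 56 a mouse limit what can be said of their alleles. The cause of these changes was not tested.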
